A study of Mus musculus with 4 samples.

Results

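The 3p arms of the let-7 microRNA (miRNA) precursors were examined in small RNA libraries of mouse retina. They are the strands opposite the let-7 guide strands, and the 9 members are mmu-let-7a-1-3p, mmu-let-7b-3p, mmu-let-7c-2-3p, mmu-let-7d-3p, mmu-let-7e-3p, mmu-let-7f-1-3p, mmu-let-7f-2-3p, mmu-let-7g-3p and mmu-let-7i-3p, named below without the species prefix mmu. These are 9 of 1326 mature miRNA rows, chosen by name and not by their values. The retinas were taken at E18.5, a late embryonic stage, and were whole tissue. The tested embryos lacked both functional copies of Ptf1a (Ptf1a-/-, 2 libraries), and they were set against heterozygotes (Ptf1a+/-, 2 libraries), so the comparison group also carried 1 disrupted copy. Ptf1a is a bHLH transcription factor needed for the normal formation of amacrine and horizontal cells, which are retinal interneurons. Ptf1a mRNA was not measured in these small RNA libraries, so the genotype labels could not be checked against it. The allele, the strain and whether animals were pooled are not in the labels. A p-value here reflects only how far these libraries lie apart, and that spread could be technical.

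A let-7 precursor is a hairpin that Dicer cuts into a short duplex. The 5p strand is usually loaded into Argonaute as the guide that represses target mRNAs, and the 3p strand, called the passenger, is mostly degraded. In developing retina, let-7 guides rise with age and are tied to the timing of progenitor competence. The RNA-binding protein LIN28 blocks let-7 maturation at the precursor loop, and terminal uridylyl transferases add uridine to let-7 precursors. Several let-7 genes make the same guide from different loci, while their 3p strands mostly differ, so a 3p row can report a single precursor.

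The mature 3p sequences (RefSeq, GRCm38.p6) are given 5′ to 3′ with the seed, bases 2 to 8, in capitals, since the differences between them decide which precursor a read can be assigned to.
let-7a-1-3p: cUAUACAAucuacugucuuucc
let-7c-2-3p: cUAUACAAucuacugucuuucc
let-7b-3p: cUAUACAAccuacugccuuccc
let-7f-1-3p: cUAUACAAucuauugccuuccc
let-7f-2-3p: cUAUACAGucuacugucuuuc
let-7d-3p: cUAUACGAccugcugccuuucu
let-7e-3p: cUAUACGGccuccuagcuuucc
let-7g-3p: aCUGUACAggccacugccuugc
let-7i-3p: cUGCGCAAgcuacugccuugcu
The guide strand of let-7i is shown for contrast, with its seed in capitals.
let-7i-5p: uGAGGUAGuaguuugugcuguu

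The 3p arms were more diverse than the guides. The 9 members had 8 distinct sequences and 6 distinct seeds, whereas the 8 guides let-7a-5p to let-7i-5p shared the seed GAGGUAG. Without gaps, allowing a shift of 1 base, 36 pairs of 3p arms ranged from 50.0% identity to full identity with a median of 76.2%. The 28 pairs of guides were 72.7 to 95.5% identical with a median of 86.4%. The seed UAUACAA was shared by let-7a-1-3p, let-7c-2-3p, let-7b-3p and let-7f-1-3p, and also by miR-98-3p of the let-7 relative miR-98. The 5 other members each had a seed of their own. All members began with C except let-7g-3p, which began with A, while the guides began with U except let-7d-5p, which began with A.

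The precursors lie at 6 loci, here given by their hairpins on GRCm38 with host genes from GENCODE M21. Mirlet7a-1 (chr13:48538179-48538272), Mirlet7f-1 (chr13:48537829-48537917) and Mirlet7d (chr13:48536012-48536114) lie on the minus strand in exonic sequence of the long noncoding RNA gene 6720427I07Rik, 261 and 1714 bases apart. Mirlet7c-2 (chr15:85706603-85706697) and Mirlet7b (chr15:85707319-85707403) lie on the plus strand in exonic sequence of the noncoding gene Lncppara, 621 bases apart. Mirlet7e (chr17:17830352-17830444, plus strand) lies in an intron of Spaca6. Mirlet7f-2 (chrX:151912346-151912428, plus strand) lies in an intron of Huwe1, 785 bases from Mir98. Mirlet7g (chr9:106178840-106178927, plus strand) lies in an intron of Wdr82, and Mirlet7i (chr10:122985640-122985724, minus strand) in exonic sequence of D630033A02Rik.

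The libraries held between 3647145 and 4385834 listed counts. 3 counts, the limit that a count of 0 allows, correspond to 0.638 to 0.924 CPM. Counting intervals and limits here cover counting error only, since no molecular identifiers are described. The Ptf1a+/- libraries lay close together (chi-square per degree of freedom 1.11 over miRNAs with 20 to 2000 summed counts, p = 0.0510), while the Ptf1a-/- libraries differed far more (8.68). Without the upper limit the values were 1.85 in Ptf1a+/- (chi-square p = 5.13e-32) and 120 in Ptf1a-/-. TMM factors, which rescale the library totals, were 1.06 and 0.829 in the Ptf1a-/- libraries (replicate 2 had the lower factor), against 1.06 and 1.07 in Ptf1a+/-. The retinal markers miR-124-3p, miR-9-5p, miR-181a-5p, miR-183-5p, miR-182-5p and miR-96-5p were all detected in every library. Their summed level was 379359 and 534842 CPM in Ptf1a-/- and 362618 and 359442 CPM in Ptf1a+/-. Summed CPM of listed markers of other tissue were 3204 and 3566 in Ptf1a-/- against 3690 and 3729 in Ptf1a+/- for pigment epithelium (3 of 3 listed), 227 and 301 against 305 and 292 for lens and surface epithelium (3 of 4), 127 and 192 against 146 and 140 for blood cells (5 of 5), 352 and 587 against 593 and 614 for vessels and mural cells (4 of 4), and 65.1 and 70.2 against 48.6 and 51.3 for striated muscle (3 of 3). Of these, 3 blood markers and 1 vessel marker were at 0 in at least 1 library. These 3 blood markers had 0 to 2 counts per library. The blood sum came almost wholly from miR-486a-5p and miR-486b-5p, whose rows held equal counts. Each stood at 63.5 and 95.8 CPM in Ptf1a-/- and 72.8 and 69.8 CPM in Ptf1a+/-. None of the retinal markers was called between genotypes. Of the other lists 1 pigment epithelium marker and 1 lens and surface epithelium marker were lower in Ptf1a-/- (3.6% of all miRNAs), and none was higher (6.16%). The first, miR-204-3p, stood at 252 and 289 CPM in Ptf1a-/- against 397 and 391 CPM in Ptf1a+/-. The second, miR-200b-3p, had 1 and 3 counts against 25 and 31, which the sum of its list does not show. In its list miR-203-3p went the other way, at 124 and 111 CPM in Ptf1a-/- against 100 and 90.6 CPM in Ptf1a+/-. miR-204-5p, the other arm of miR-204, stood at 2944 and 3266 CPM against 3283 and 3325 CPM and was not called. In each of the 2 lists both Ptf1a-/- values were below for 2 of 3 tested markers (31.5% of all miRNAs). They were above for 0 and 1 (26.7%). The part of the listed markers in the results was not tested.

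Passenger strands were rare in every library. The 10 listed let-7 guide rows (let-7j and let-7k, which carry no arm suffix, included) took 14.6 and 15.7% of the counts in Ptf1a-/- and 14.7 and 14.5% in Ptf1a+/-. The 9 members took 0.0584 and 0.0496% in Ptf1a-/- and 0.0565 and 0.0561% in Ptf1a+/-. All 11 listed let-7 3p rows together made up 0.400 and 0.317% of let-7 counts in Ptf1a-/- and 0.386 and 0.385% in Ptf1a+/-. Levels below are TMM-scaled CPM, counts relative to a common library total. Levels of different miRNAs also carry sequence preferences of ligation and PCR, so their order is given as measured. In whole tissue, fewer cells that make a miRNA and less of it per cell cannot be told apart.

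The members spanned a wide range of levels. let-7d-3p, the most abundant, stood 229-fold above let-7g-3p, the rarest, in Ptf1a-/- and 184-fold in Ptf1a+/-. The order from high to low was let-7d-3p, the equal rows of let-7a-1-3p and let-7c-2-3p, let-7e-3p, let-7f-2-3p, let-7i-3p, let-7f-1-3p, let-7b-3p and let-7g-3p in the Ptf1a+/- libraries. In Ptf1a-/-, let-7e-3p overlapped with let-7f-2-3p, and let-7i-3p with let-7f-1-3p. The other neighbours in this order did not overlap between libraries of either genotype, apart from the equal rows.

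**Figure D1:**
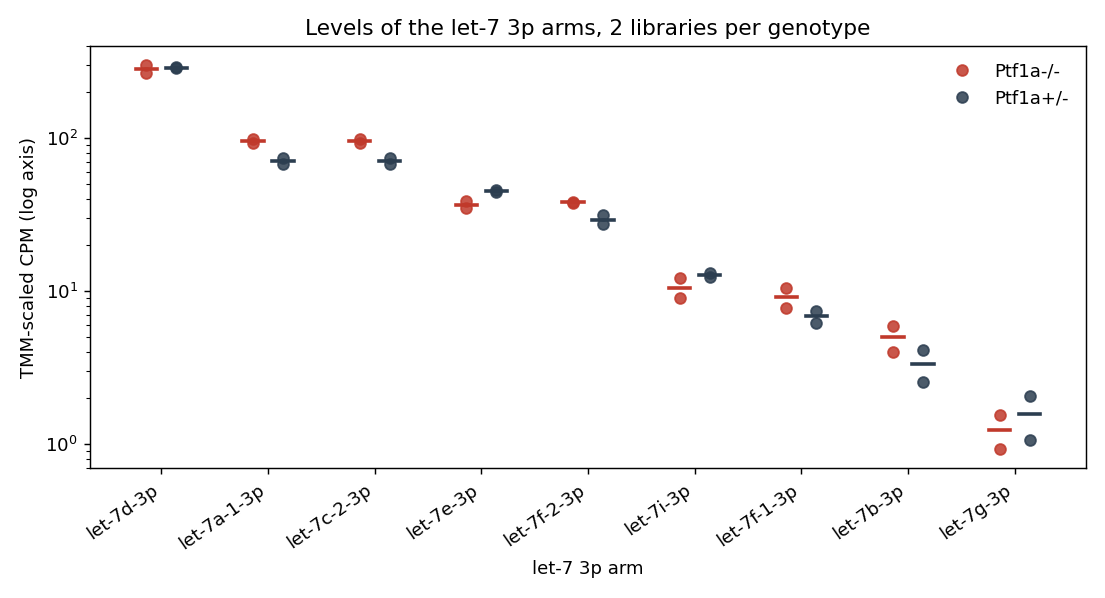
TMM-scaled CPM (log axis) of the 9 let-7 3p arms, with a point per library and a bar at the mean of 2 libraries per genotype. let-7d-3p sits near 283 CPM in Ptf1a-/- and 288 CPM in Ptf1a+/-, and let-7g-3p near 1.24 CPM in Ptf1a-/- and 1.57 CPM in Ptf1a+/-.

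Of the 9 members, 8 had 10 or more counts in at least 2 libraries and entered the test between genotypes, and let-7g-3p did not. None of the 8 passed an adjusted p of 0.05 in either direction (edgeR quasi-likelihood test, Benjamini-Hochberg over 584 miRNAs). Over all 584 miRNAs, 6.16% were called higher and 3.6% lower in Ptf1a-/-. At an unadjusted p under 0.05, 2 of the 8 were higher, the equal rows of let-7a-1-3p and let-7c-2-3p, as were 13.7% of all miRNAs. DESeq2 called none of the 8, and none had an unadjusted p under 0.05 there. For 4 of the 8, both Ptf1a-/- values exceeded both Ptf1a+/- values (26.7% of all miRNAs), and for 2 they were lower (31.5%). These counts moved with the scaling: with library size only they were 3 and 3 (14.2 and 40.1% of all miRNAs), and on the deposited CPM 0 and 3 (10.1 and 50.7%). let-7e-3p and let-7i-3p were below under all 3 scalings, and let-7d-3p with library size only and on the deposited CPM. The median log2 fold change of the 8 was 0.38, beside -0.0031 over all miRNAs tested, and adjusted p ranged from 0.108 to 0.917. The equal rows are 2 of the 4 members above on the TMM scale. They enter these counts and the median as 2 members, though they hold 1 set of values.

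The chromosome 13 precursors share a host transcript, and their passenger strands differed widely in level. let-7d-3p, from the end of this cluster, had 1031 and 973 counts in Ptf1a-/- and 1111 and 1359.5 in Ptf1a+/-. Its level was 266 and 300 CPM in Ptf1a-/-, against 287 and 289 CPM in Ptf1a+/-. The genotypes overlapped on this scale, and the log2 fold change was -0.028 ± 0.12 (SE, edgeR adjusted p = 0.917). On the deposited CPM both Ptf1a-/- libraries were lower (217.9 and 179.2, against 252.7 and 259.4 in Ptf1a+/-). let-7f-1-3p, whose guide is also made by let-7f-2, had only 30 and 34 counts in Ptf1a-/- and 24.5 and 35 in Ptf1a+/-. That was 7.74 and 10.5 CPM in Ptf1a-/-, against 6.20 and 7.45 CPM in Ptf1a+/- (log2 fold change 0.39 ± 0.30, edgeR adjusted p = 0.478). The Ptf1a-/- libraries lay above the Ptf1a+/- libraries, in replicate 1 by little. let-7d-3p thus exceeded let-7f-1-3p in counts by 34.4 and 28.6 times in Ptf1a-/-, and by 45.3 and 38.8 times in Ptf1a+/-.

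let-7a-1-3p, from the same transcript, cannot be separated from let-7c-2-3p of chromosome 15, since the mature sequences are identical. Both rows held 360 and 321 counts in Ptf1a-/- and 285 and 316.5 in Ptf1a+/-, equal in all 4 libraries, and no other row equalled them or any other member. The sources used here do not say if each read was split between the rows or counted in both. Full counting in both rows would give whole numbers, and 316.5 is not whole, so at least some reads were divided among rows. The level of either row was 92.9 and 98.8 CPM in Ptf1a-/-, against 73.6 and 67.2 CPM in Ptf1a+/-. Both Ptf1a-/- libraries were higher, with a log2 fold change of 0.45 ± 0.14 (SE, edgeR adjusted p = 0.108). With the rows joined into 1, the lowest adjusted p of the members was 0.0838. In the authors' deposited CPM, which carry no TMM factor, the row stood at 76.1 and 59.1 in Ptf1a-/- and 64.8 and 60.4 in Ptf1a+/-, so that the genotypes overlapped there. With either Ptf1a-/- library left out, both rows passed: adjusted p was 3.37e-05 without replicate 1 and 0.000203 without replicate 2. There the spread came from the close Ptf1a+/- pair alone, and of the 584 miRNAs 140 would be called higher and 123 lower without replicate 1, and 142 and 132 without replicate 2. Fractional counts also occurred in let-7b-3p (2 libraries), let-7d-3p and let-7f-1-3p (1 library each).

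let-7b-3p, the neighbour of let-7c-2 on chromosome 15, was far rarer than the row shared by let-7a-1 and let-7c-2. It had 23 and 13 counts in Ptf1a-/- and 15.5 and 11.5 in Ptf1a+/-, or 5.94 and 4.003 CPM against 4.13 and 2.55 CPM. The genotypes overlapped (log2 fold change 0.62 ± 0.39, edgeR adjusted p = 0.388). This was the largest fitted change among the members and the one with the largest error.

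let-7f-2-3p comes from an X-linked intronic precursor beside miR-98. It had 146 and 124 counts in Ptf1a-/- and 106 and 147 in Ptf1a+/-, or 37.7 and 38.2 CPM against 27.4 and 31.3 CPM. Both Ptf1a-/- libraries were higher on this scale, without passing the threshold (log2 fold change 0.37 ± 0.18, edgeR adjusted p = 0.265). The neighbouring miR-98-3p had 6.20 and 8.31 CPM in Ptf1a-/- and 11.9 and 8.30 CPM in Ptf1a+/-. Neither arm of miR-98 passed.

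The 3 remaining members, encoded by let-7 genes that are not clustered with other let-7 genes, had lower means in Ptf1a-/-. let-7e-3p had 135 and 125 counts in Ptf1a-/- and 176 and 210 in Ptf1a+/-, or 34.8 and 38.5 CPM against 45.5 and 44.7 CPM. Both Ptf1a-/- libraries were lower, and the log2 fold change was -0.30 ± 0.16 (edgeR adjusted p = 0.321). let-7i-3p had 47 and 29 counts in Ptf1a-/- and 51 and 58 in Ptf1a+/-, or 12.1 and 8.93 CPM against 13.2 and 12.3 CPM. The Ptf1a-/- libraries were again below, replicate 1 by little (log2 fold change -0.26 ± 0.26, edgeR adjusted p = 0.597). let-7g-3p had 6 and 3 counts in Ptf1a-/- and 8 and 5 in Ptf1a+/-. The ratio of its summed counts, scaled by library, was 0.833 in Ptf1a-/- over Ptf1a+/- with a 95% exact counting interval of 0.314 to 2.11, so a change of 2-fold was not detectable at this depth.

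**Figure D2:**
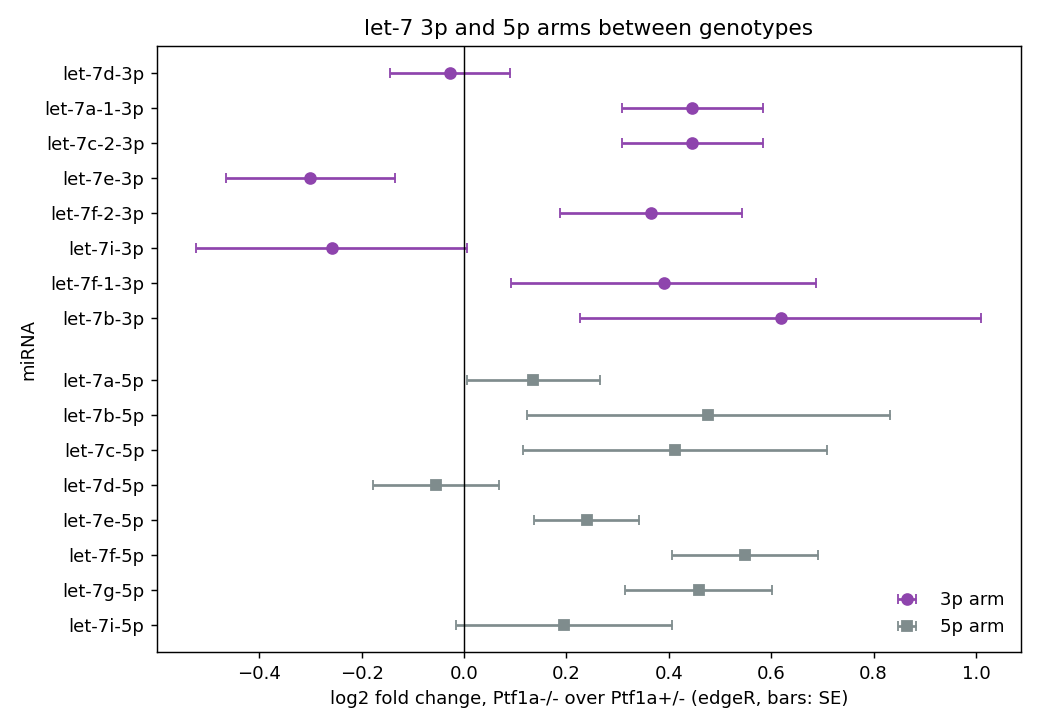
log2 fold change of Ptf1a-/- over Ptf1a+/- for the 8 tested 3p arms and the 8 guide arms, with bars for the SE of the edgeR fit. let-7e-3p (-0.30) and let-7e-5p (0.24) lie on opposite sides of 0, and no arm shown passed the adjusted threshold.

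The guide arms were tested in the same fit. None of the 10 guide rows passed, with a median log2 fold change of 0.33. On the TMM scale 4 of the 10 had both Ptf1a-/- values over both Ptf1a+/- values (26.7% of all miRNAs) and 0 had both below (31.5%). Those above were let-7a-5p, let-7e-5p, let-7f-5p and let-7g-5p. With library size only 2 were above and 1 below (14.2 and 40.1% of all miRNAs), and on the deposited CPM 2 were above and 4 below (10.1 and 50.7%). let-7f-5p and let-7g-5p were above under all 3 scalings, and let-7a-5p was below on the deposited CPM. let-7f-5p had the lowest adjusted p of the 10 guide rows (log2 fold change 0.55 ± 0.14, edgeR adjusted p = 0.0756). Of the miR-99, miR-100 and miR-125 arms that are encoded beside let-7e, let-7c-1 and let-7a-2, 9 of 11 entered the test, 1 fell (3.6% of all miRNAs) and none rose (6.16%). Of the 9, 6 had both Ptf1a-/- values below both Ptf1a+/- values (31.5% of all miRNAs) and 1 had both above (26.7%), and with library size only or on the deposited CPM 8 were below and 0 above. The one that fell was miR-125a-5p, from the primary transcript of let-7e (log2 fold change -0.52 ± 0.11, edgeR adjusted p = 0.0430), while miR-99b-5p and miR-99b-3p of that transcript stood at 0.15 and 0.23 without passing.

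The 3p to 5p ratio sets the passenger against its guide within 1 library and does not depend on scaling between libraries. The arms differ in sequence, so preferences of ligation and PCR can enter the ratio. For let-7b, d, e, g and i each arm comes from 1 precursor. Their guide rows nevertheless held values that are not whole, such as 22726.3 counts of let-7d-5p in Ptf1a-/- replicate 1. How far guide reads divided among rows enter these ratios was not tested. let-7f-5p comes from 2 loci, so it was set against let-7f-1-3p plus let-7f-2-3p. let-7a-5p and let-7c-5p were summed and set against all listed let-7a and let-7c 3p rows, the equal rows both counted.

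let-7d had the highest 3p to 5p ratio of the let-7 pairs. Its 3p counts were 4.54 and 4.45% of its 5p counts in Ptf1a-/-, and 4.39 and 4.42% in Ptf1a+/-. let-7e stood at 1.34 and 1.49% in Ptf1a-/-, against 2.10 and 2.01% in Ptf1a+/-. The joint let-7a and let-7c ratio was 1.21 and 0.939% in Ptf1a-/-, against 0.953 and 0.858% in Ptf1a+/-. With only 1 of the equal rows counted, its mean was 0.545% in Ptf1a-/- and 0.459% in Ptf1a+/-, in place of 1.07 ± 0.193% and 0.905 ± 0.0674% (SD, 2 libraries each). That setting takes each shared read as counted in both rows, and it leaves reads out where they were split.

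In the other pairs the passenger stayed under 1% of the guide. let-7f had 0.244 and 0.217% in Ptf1a-/-, against 0.238 and 0.278% in Ptf1a+/-. let-7b had 0.375 and 0.111% in Ptf1a-/-, against 0.215 and 0.131% in Ptf1a+/-. let-7i, the most abundant let-7 guide with 306128.5 to 391109.5 counts per library, had 0.0154 and 0.00782% in Ptf1a-/-, against 0.0154 and 0.0148% in Ptf1a+/-. let-7g had 0.0104 and 0.00511% in Ptf1a-/-, against 0.0171 and 0.00896% in Ptf1a+/-. The ratio of let-7d was 388-fold that of let-7i in Ptf1a-/- and 291-fold in Ptf1a+/-.

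These 3p to 5p ratios were low among miRNAs of this tissue. Of 154 precursor pairs with 10 or more counts of each arm in at least 2 libraries, 38.3% had more 3p than 5p counts and the median 3p level was 49.2% of the 5p level. The let-7 pairs held ranks 1 (let-7i), 5 (let-7b), 7 (let-7f), 23 (let-7a and let-7c), 29 (let-7e) and 37 (let-7d), counted from the lowest ratio. let-7g did not pass this filter and has no rank. Its mean ratio was 0.00777% in Ptf1a-/- and 0.0130% in Ptf1a+/-, against 0.0116 and 0.0151% for let-7i. The ranks and the median describe only pairs with both arms past the filter. Where 3p counts exceed 5p counts, the 3p strand is the commoner arm. The median and the ranks thus compare 3p with 5p arms, not passengers with guides.

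**Figure D3:**
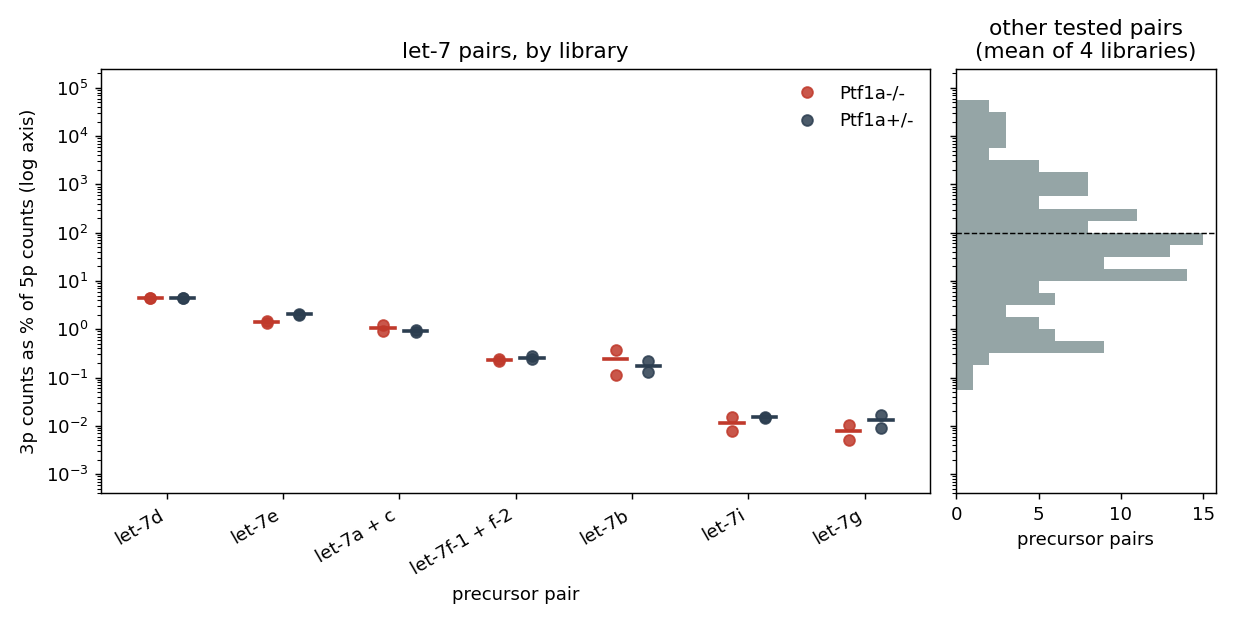
Left, 3p counts as a percent of 5p counts (log axis) for 7 let-7 pairs, a point per library and a bar at the mean of 2 libraries per genotype; right, the same ratio averaged over 4 libraries for the other tested pairs, with a dashed line at equal arms. let-7d is near 4.49% in Ptf1a-/- and 4.40% in Ptf1a+/-, and let-7i near 0.0116% in Ptf1a-/- and 0.0151% in Ptf1a+/-, below the bulk of the other pairs.

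None of the 6 let-7 ratios in the test passed between genotypes (limma on log2 ratios, Benjamini-Hochberg over 154 pairs), nor with edgeR's test of a genotype by arm interaction. Over all pairs limma called 1.3% higher and 0% lower in Ptf1a-/-. At an unadjusted p under 0.05, 1 of the 6 was lower, as were 7.79% of all pairs. This was let-7e, whose ratio was lower in both Ptf1a-/- libraries, as was that of 27.3% of all pairs. Its log2 difference was -0.54 ± 0.24 (SE), with a 95% interval of -1.04 to -0.034 and a limma adjusted p of 0.252. On the TMM scale the let-7e guide was above (2593 and 2586 CPM in Ptf1a-/-, 2167 and 2219 CPM in Ptf1a+/-) while the passenger was below. Without Ptf1a-/- replicate 1 or replicate 2 the let-7e ratio passed (limma adjusted p = 0.0379 and 0.00395), and with the Ptf1a+/- libraries summed it did not (0.927). Over its 12 alternatives the difference stayed between -0.61 and -0.46.

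The let-7d ratio, for which both Ptf1a-/- values were marginally higher (20.8% of all pairs), had a log2 difference of 0.029, with an interval of -0.38 to 0.44. The joint let-7a and let-7c ratio stood at 0.24 (-0.20 to 0.67) and let-7f at -0.16 (-0.67 to 0.34). The joint ratio passed only without Ptf1a-/- replicate 2 (0.42, limma adjusted p = 4.39e-05). The let-7 median was -0.067, beside -0.020 over all pairs.

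let-7b and let-7i differed most between the Ptf1a-/- libraries. Against the Ptf1a+/- mean, the let-7b ratio was 1.13 higher on the log2 scale in replicate 1 and stood at -0.60 in replicate 2. The let-7b guide was at 1584 and 3601 CPM in Ptf1a-/- replicates 1 and 2 and at 1859 and 1864 CPM in Ptf1a+/-, and let-7c-5p at 4313 and 8384 CPM against 4752 and 4789 CPM. Both guides were thus higher in Ptf1a-/- replicate 2 than in the 3 other libraries, and let-7c-5p is also made by let-7c-1 on chromosome 16. On the same scale let-7b-3p was lower in Ptf1a-/- replicate 2 than in replicate 1 (4.003 and 5.94 CPM), and the row shared by let-7a-1 and let-7c-2 was at 98.8 and 92.9 CPM. The exact 95% counting intervals of the let-7b ratio, 0.237 to 0.563% in Ptf1a-/- replicate 1 and 0.0592 to 0.190% in replicate 2, did not overlap. The let-7i ratio stood at 0.025 in replicate 1 and -0.94 in replicate 2, with intervals of 0.0113 to 0.0204% and 0.00524 to 0.0112%. The fitted differences were 0.27 for let-7b (-0.75 to 1.29) and -0.46 for let-7i (-1.20 to 0.29), so neither direction was settled.

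**Figure D4:**
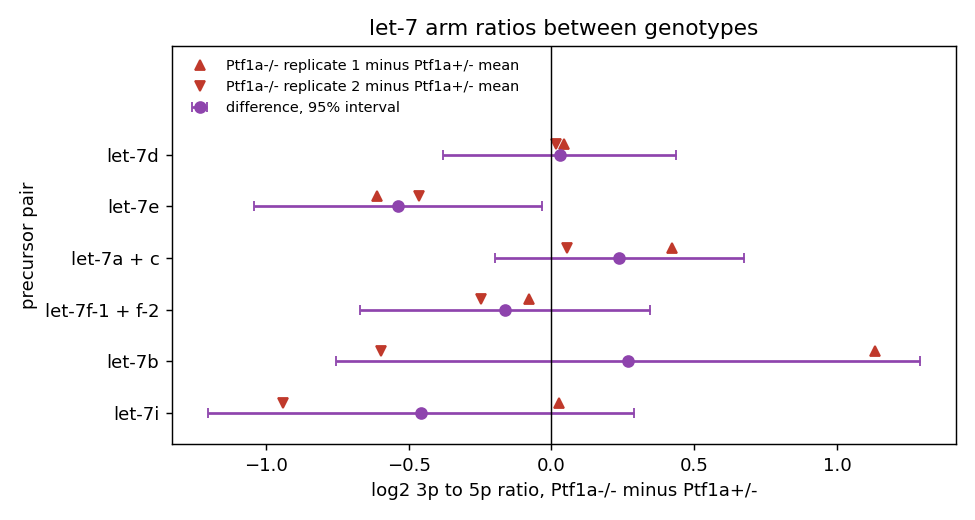
Difference of the log2 3p to 5p ratio, Ptf1a-/- minus Ptf1a+/-, for the 6 tested let-7 pairs with the 95% interval of the limma fit; triangles give each Ptf1a-/- library against the Ptf1a+/- mean. let-7e lies at -0.54 with both libraries on the same side, and the libraries of let-7b lie at 1.13 and -0.60.

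Where a guide is made at several loci, the 3p rows gave a split by precursor. let-7f-1-3p made up 17.0 and 21.5% of let-7f 3p counts in Ptf1a-/- and 18.8 and 19.2% in Ptf1a+/-, so let-7f-2-3p held the rest. The exact 95% counting intervals, from 11.8 to 23.4% and 15.4 to 28.8% in Ptf1a-/- and from 12.2 to 26.2% and 13.8 to 25.7% in Ptf1a+/-, all overlapped. let-7a-2-3p (0 and 1 counts in Ptf1a-/-, 1 and 0 in Ptf1a+/-) and let-7c-1-3p (9 and 9 counts against 10 and 6) together held 1.23 and 1.53% of let-7a and let-7c 3p counts in Ptf1a-/- and 1.89 and 0.939% in Ptf1a+/-. The rest lay in the row shared by let-7a-1 and let-7c-2. A split of passenger reads is not a split of guide reads, since the share of passenger kept differed by precursor.

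The deposited most frequent sequences separated the members by their 3′ end. In 5 of 9 members the most frequent read of all 4 libraries ended in a T that the precursor does not encode. These were let-7a-1-3p, let-7c-2-3p, let-7b-3p, let-7f-1-3p and let-7f-2-3p, with 4 distinct sequences among them. In each, the difference from the precursor was C22T, where position 1 is the first base of the mature strand. The reads are shown as DNA with the base that is not templated in capitals.
let-7a-1-3p and let-7c-2-3p, most frequent read: ctatacaatctactgtctttcT
let-7b-3p, most frequent read: ctatacaacctactgccttccT
let-7f-1-3p, most frequent read: ctatacaatctattgccttccT
let-7f-2-3p, most frequent read: ctatacagtctactgtctttcT
let-7d-3p, most frequent read: ctatacgacctgctgcctttct
let-7e-3p, most frequent read: ctatacggcctcctagctttcc
The reads of let-7d-3p and let-7e-3p matched their precursors in all 4 libraries.

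The precursors of let-7a-1 and let-7e are given with both mature arms in capitals, to show the templated bases at the 3′ end of the passenger (RefSeq, GRCm38.p6).
Mirlet7a-1: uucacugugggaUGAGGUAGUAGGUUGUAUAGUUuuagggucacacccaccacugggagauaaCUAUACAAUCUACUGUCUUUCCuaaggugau
Mirlet7e: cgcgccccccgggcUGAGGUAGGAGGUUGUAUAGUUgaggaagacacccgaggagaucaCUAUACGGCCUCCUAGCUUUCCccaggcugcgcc
In let-7d-3p the templated base at that place is itself U, so an added U could not be told apart from the encoded base. In human cells, most let-7 precursors leave Drosha with a short 3′ overhang and receive a single uridine from terminal uridylyl transferases before Dicer, whereas human let-7e, let-7a-2 and let-7c are described as having the usual overhang. The human let-7c gene is the counterpart of mouse let-7c-1, not of let-7c-2, whose 3p arm is a member here. The most frequent let-7c-1-3p read matched its precursor in both Ptf1a-/- libraries and in Ptf1a+/- replicate 2. In Ptf1a+/- replicate 1 it ended in a T that is not templated, at 10 counts. let-7g is not among the precursors described as exceptions, yet its 3p read matched the precursor in all 4 libraries, at few counts. Whether the ends seen here arise in that way was not tested. Among 199 tested 3p arms that could be placed on a RefSeq precursor, 22 (11.1%) had a last base T that was not templated in all 4 libraries, and these 22 include the 5 let-7 rows. Among 198 5p arms it was 1 (0.505%), and no let-7 guide was among them. The table gives only the most frequent read, so the share of reads with such an end is unknown. For the 5 let-7 rows the form was the same in both genotypes.

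let-7i-3p and let-7g-3p varied at their ends, and their most frequent reads matched the precursor. The most frequent let-7i-3p read ended in T in replicate 1 of both genotypes and was 1 base shorter in replicate 2 of both. The encoded base at that place is itself U, so, as for let-7d-3p, an added U could not be told apart from it. For let-7g-3p the most frequent read started 1 base later than the reference in both Ptf1a-/- libraries and in Ptf1a+/- replicate 1, which moves the seed to UGUACAG. That is also the seed of let-7a-2-3p. In Ptf1a+/- replicate 2 the read started 1 base earlier. With 3 to 8 counts of let-7g-3p per library these forms rest on a few reads.

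Over the 4 libraries, the 8 tested members, each centred on its mean, had a median profile of 0.12 and 0.13 (log2 CPM) in Ptf1a-/-. In Ptf1a+/- it was -0.074 and -0.079, with the equal rows both counted. Of 400 other miRNAs with a mean of 10 CPM or more, miR-93-5p, miR-344-3p and miR-362-5p had the most similar profiles, with root mean square differences of 0.034, 0.046 and 0.049, beside a median of 0.24. With 4 libraries in 2 groups, this likeness is a description only.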

How the data were processed

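Total RNA from retina was size-selected on gels at 18 to 30 nt and made into libraries (New England Biolabs kit for small RNA), per the labels' protocols. Per the submitters' processing notes, bcl2fastq 2.20.0.422 separated the libraries. The sources used here do not name the aligner, the counter or the genome build. The deposited raw table lists estimated counts (expected counts) by mature miRNA, of which 5.73 to 7.84% per library were not whole. They were rounded to whole numbers for the count tests, where whole counts had been assumed, and used unrounded for ratios. The deposited CPM table, used in an alternative, divides by a library total that exceeds the listed counts by 16.3 to 27.9% of that total. The third deposited table lists each miRNA's commonest read per library, written against miRBase 22 per the file headers.

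Levels are CPM with TMM scaling. Genotypes were compared with edgeR 4.0.16 (R 4.3.3; quasi-likelihood F test with genotype and no covariate) on the 584 of 1326 rows that reached 10 counts in 2 or more libraries. Arm ratios were compared with limma 3.58.1 on log2((3p + 0.5)/(5p + 0.5)), with a variance trend on the weaker arm's count, two-sided, over 154 pairs. Benjamini-Hochberg adjusted p under 0.05 made a call. With 2 libraries per genotype, exact permutation cannot give less than p = 0.333. Both fits were tested on simulated data in which every library had the same spread. That test does not cover the unequal spread of the genotypes seen here. Sequences and positions come from RefSeq (GRCm38.p6), where all 9 members matched by name, and their hairpins have the same coordinates in GENCODE M21. Reads were compared with the hairpin base by base. The members, lists and tests were chosen with earlier results of these data known. The miRNAs named are the members, the guides, miR-98, the remaining let-7 3p rows, the cluster partners a result turns on, and the 3 miRNAs with the most similar profile. Retinal markers, the called markers of other tissue, miR-203-3p, miR-204-5p, miR-486a-5p and miR-486b-5p are named too. miR-99b and the uncalled markers of other tissue were named after their values were seen. Alternatives covered scaling, tool (DESeq2 1.42.0), filters, rounding, shared rows, pseudocounts, the replicate block, summed Ptf1a+/- libraries and leaving out each library.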

Additional observations from a re-analysis of the deposited data

How the results depend on the processing

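No call of a let-7 3p arm or ratio was made under any alternative that kept all 4 libraries. Leaving out 1 library at a time, 0 to 2 3p arms were called higher (let-7a-1-3p and let-7c-2-3p, without either Ptf1a-/- library), 0 to 1 ratios higher (let-7a and let-7c jointly, without Ptf1a-/- replicate 2) and 0 to 1 lower (let-7e, without either Ptf1a-/- library). These fits rest on the close Ptf1a+/- pair and take the lone library to vary as that pair does. Signs changed only when a library was left out, over ranges of -0.096 to 0.056 for the let-7d-3p log2 fold change (above 0 without Ptf1a-/- replicate 1), -0.60 to 1.13 for the let-7b ratio (below 0 without Ptf1a-/- replicate 1 or Ptf1a+/- replicate 2) and -0.94 to 0.025 for the let-7i ratio (above 0 without Ptf1a-/- replicate 2). The other values, 91 of 96 fold changes and 66 of 72 ratio differences, kept their direction and their side of the threshold. Scaling by library size only or by the deposited CPM moved the median of all miRNAs to -0.18 and -0.33 and that of the members to 0.19 and 0.031. Counting 1 of the equal rows, as if each shared read stood in both, put the joint let-7a and let-7c ratio at 0.545% in Ptf1a-/- and 0.459% in Ptf1a+/-.

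Calls over all miRNAs, 36 higher and 21 lower, were 4 and 12 with library size only, 1 and 27 on the deposited CPM, 12 and 9 with no filter, 0 and 1 with the Ptf1a+/- libraries summed, and between 0 and 142 higher and 1 and 132 lower with a library left out. Ratio calls over all pairs, 2 higher and 0 lower, were 6 and 3 with a pseudocount of 2 or with edgeR's interaction, 1 and 0 without the variance trend, 0 and 0 with no filter or summed libraries, and up to 24 and 21 with a library left out. With the replicate block, 5 miRNAs were higher and 7 lower, 0 members were called (lowest adjusted p = 0.226), and 0 let-7 ratios (0.436). The labels tie the numbers to no litter or day, and deviations of same-numbered libraries had a correlation of 0.050, so the numbers were not taken as pairs. Members with few counts limit what could be seen: let-7g-3p had 3 to 8 counts per library and let-7b-3p 11.5 to 23.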
